A study of Mus musculus with 83 samples.

Results

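The difference in RNA polymerase II (Pol II) occupancy with and without induced degradation of TATA-binding protein (TBP) was measured in mouse embryonic stem cells (mESCs). All of them were at the same time exposed to retinoic acid (RA). Every gene of the deposited count table with enough reads was included, which gave 16439 of 27752 genes, read from 4 of the 83 samples of the series. The RA+IAA group (2 libraries) had received 25 µM RA and 500 µM indole-3-acetic acid (IAA, auxin) for 16 h, and the RA group (2 libraries) 25 µM RA for 16 h without IAA. The RA concentration is the one in the sample labels, and the study's methods state a lower one. Both groups are C64 cells, a single engineered clone of the male mESC line JM8.N4 in which TBP carries a minimal auxin-inducible degron, the largest Pol II subunit a HaloTag and histone H3.3 a GFP tag, so that the RA cells carry all of these tags as well. No cells without the degron received IAA in this series, so an effect of IAA apart from loss of TBP was not tested. The cells were kept on gelatin in medium with serum and leukemia inhibitory factor. The nearest other comparison came from the same run: 500 µM IAA for 16 h without RA (2 libraries) against control cells (2 libraries). The assay was CUT&Tag: a transposase brought to Pol II by an antibody inserts sequencing adapters into the DNA nearby, and the reads were counted over whole gene bodies without regard to strand.

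TBP is the DNA-binding core subunit of TFIID and also takes part in initiation by RNA polymerases I and III. At Pol II promoters it bends DNA at the TATA box, where there is such a box, and TFIIA, TFIIB and the other general factors assemble around it. RA enters cells, binds heterodimers of the RAR and RXR nuclear receptors that sit on response elements, and turns on genes such as Stra8, Cdx1, Rarb and the Hox clusters while the pluripotency program of mESCs is shut down.

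TBP signal was lower with IAA in both replicates. In TBP CUT&Tag of the same run the mouse reads per E. coli spike-in read were 4.77 with RA+IAA against 12.1 with RA in replicate 1 (ratio 0.393), and 0.395 against 0.697 in replicate 2 (ratio 0.567), where the IgG library of control cells stood at 0.330. For Pol II the same ratios of RA+IAA over RA were 0.972 and 0.907. Reads assigned to genes numbered 5056322 and 3854622 in the RA+IAA libraries and 5038033 and 3993713 in the RA libraries. The replicates stood apart: the share of E. coli reads was 0.494 to 0.566% in the 4 Pol II libraries of replicate 1 and 7.55 to 11.6% in those of replicate 2, and a library resembled the other group's library of the same number (correlation of log2 levels 0.973 averaged over both numbers) more than its own group's other library (0.933 in RA+IAA, 0.954 in RA). Of 6 mESC markers 4 had enough reads, among them Esrrb, with summed levels of 253 to 376 CPM (reads per 1000000 reads of the scaled library) in RA+IAA and 290 to 446 CPM in RA, and Sox2, which lies within Sox2ot, had 0 reads in every library. Marker sums of feeder fibroblasts (35.5 to 66.4 CPM in RA+IAA, 31.9 to 55.6 CPM in RA), trophoblast (82.1 to 121 and 69.0 to 101 CPM), primitive endoderm (192 to 242 and 154 to 222 CPM) and blood (36.5 to 70.0 and 33.8 to 65.9 CPM) overlapped between the groups, and 0 of the 17 markers of these other cell types with enough reads (of 21) passed the test described next.

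Pol II changed at 171 genes (1.04% of those tested). It was lower in RA+IAA than in RA at 105 genes (0.639%), among them the snoRNA host transcript 1110038B12Rik, the constitutive Hsp70 gene Hspa8 and Pabpc4, which codes for a protein that coats poly(A) tails, and higher at 66 genes (0.401%), among them the p53 targets Bax, Gtse1, Cdkn1a and the long non-coding RNA gene Trp53cor1. The changes were mostly small. The log2 fold changes of the lower genes ran from -2.03 to -0.29 with a median of -0.57, those of the higher genes from 0.30 to 1.89 with a median of 0.53, and 16 lower and 3 higher genes differed by more than 2-fold. Across all genes tested the median was 0.01, and at 13663 genes (83.1%) the 95% interval of the difference lay within 2-fold in either direction. The test was edgeR's quasi-likelihood F test with the replicate number as a block, with p adjusted by Benjamini-Hochberg over all genes tested and a threshold of 0.05. Values written with ± are log2 fold changes of that fit and their standard error (SE), and positive values mean more Pol II with IAA, unless another comparison is named. All 171 genes differed in the same direction within both replicates, which a blocked test of 2 pairs nearly fixes for the genes it calls, so this is no separate support. Taken over all 4 libraries, 45 of the higher and 63 of the lower genes had CPM that did not overlap between the groups, as had 22.1% of all genes tested.

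These counts depend on the block, and the study reported no significant differences between RA and RA+IAA cells in this assay. Without it the same test called 0 genes, with 104 at an unadjusted p under 0.05 against 1528 in the blocked fit, and the likelihood-ratio test without a block also called 0 (145 at an unadjusted p under 0.05). A blocked fit of all 8 libraries of the run, which estimates the spread from more libraries, called 48 genes for the same contrast (0.282%), 8 higher and 40 lower, and all 48 are among the 171. In that fit the calls numbered 0 higher and 21 lower without replicate 1 of RA+IAA, 12 and 36 without replicate 2 of RA+IAA, 0 and 14 without replicate 1 of RA, and 3 and 24 without replicate 2 of RA. Scaling moved the balance of directions: 28 genes were higher and 177 lower when libraries were scaled by E. coli reads, and 17 higher and 46 lower when scaled by library size alone.

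**Figure D1:**
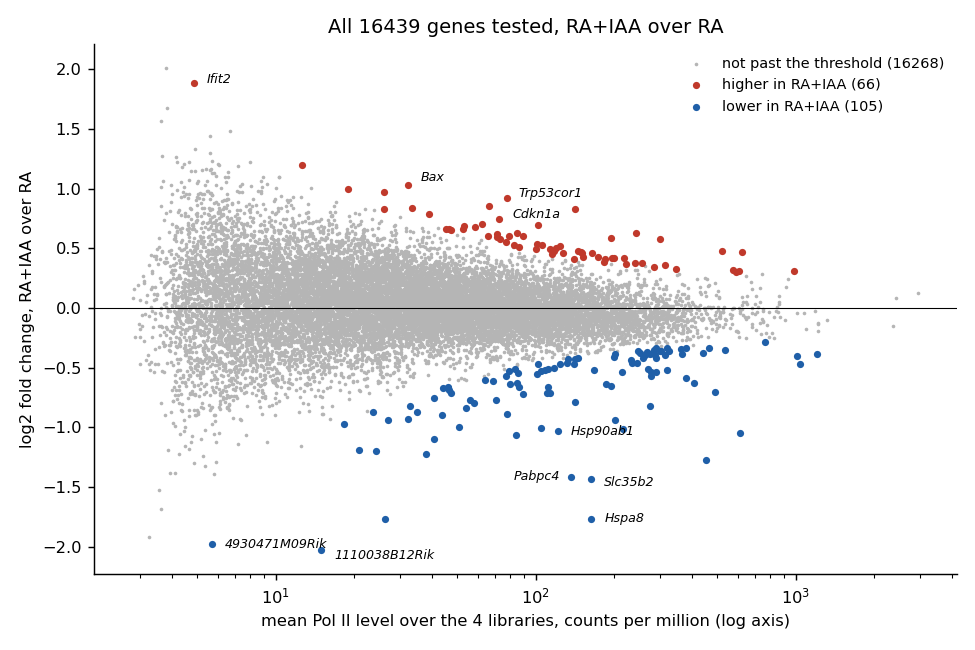
Log2 fold change of Pol II counts, RA+IAA over RA (vertical axis), against the mean level over the 4 libraries in CPM, not divided by gene length (horizontal log axis), for the 16439 genes tested. The 66 genes past the threshold in the upward direction are red and the 105 in the downward direction blue, and the lower genes reach further from 0 than the higher ones at levels above 100 CPM.

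The sequences before the start sites of the leading genes are shown because TBP binds the TATA box, which sits shortly upstream of the start where a promoter has one. They were taken from RefSeq's annotation of GRCm38.p6, for the 5 lower and the 3 higher genes with the largest change that had non-overlapping libraries and an entry in the promoter table within 500 bases of the gene start used for counting. The lower genes Hspa8 and Pabpc4 and the higher gene Slc52a3 had no such entry. Each line gives the 100 bases from -100 to -1, 5′ to 3′ on the gene's strand, with positions -40 to -20 in capitals. The lower genes come first, from chr17:34952472-34952571, minus strand, chr6:91440855-91440954, minus strand, chr2:26628357-26628456, plus strand, chr17:45563836-45563935, plus strand, and chr2:144270573-144270672, minus strand.
1110038B12Rik: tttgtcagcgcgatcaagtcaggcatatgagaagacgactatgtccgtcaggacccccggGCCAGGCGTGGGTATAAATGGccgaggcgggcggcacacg
4930471M09Rik: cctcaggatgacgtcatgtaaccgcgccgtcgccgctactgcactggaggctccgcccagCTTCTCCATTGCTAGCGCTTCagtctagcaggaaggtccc
Dipk1b: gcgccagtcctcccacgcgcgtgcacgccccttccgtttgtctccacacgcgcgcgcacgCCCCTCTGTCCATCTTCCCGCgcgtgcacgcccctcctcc
Slc35b2: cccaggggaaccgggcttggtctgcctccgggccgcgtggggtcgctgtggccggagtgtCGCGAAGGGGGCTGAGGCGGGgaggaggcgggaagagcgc
Snx5: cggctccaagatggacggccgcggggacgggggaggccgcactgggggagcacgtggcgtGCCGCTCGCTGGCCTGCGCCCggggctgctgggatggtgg
The higher genes are from chr19:34550594-34550693, plus strand, chr7:45466899-45466998, minus strand, and chr2:153031752-153031851, plus strand.
Ifit2: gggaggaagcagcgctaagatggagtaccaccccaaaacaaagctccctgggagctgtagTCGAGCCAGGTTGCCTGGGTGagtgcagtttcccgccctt
Bax: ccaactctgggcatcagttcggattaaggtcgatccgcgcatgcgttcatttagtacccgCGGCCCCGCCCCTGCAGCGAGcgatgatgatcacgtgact
Xkr7: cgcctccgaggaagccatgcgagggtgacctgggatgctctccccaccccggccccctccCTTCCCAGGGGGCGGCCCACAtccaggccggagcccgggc
TATAAA lay in the capital stretch of 1110038B12Rik, with its first base at -28, and neither TATAAA nor TATATA was found on the gene's strand in that stretch or elsewhere in the 250 upstream bases of the other 7. The start used here lay 58, 62 and 334 bases from the counted gene start in 4930471M09Rik, Slc35b2 and Snx5, and at the same base in the other 5. A match is only a match of letters, and the absence of these letters from this window says nothing about which factors bind there.

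Among all tested genes with upstream sequence (16433), 1.63% had TATAAA or TATATA, words that can overlap each other, on the gene's strand between -40 and -20 of the counted start, against 4 of the 105 lower genes (3.81%) and 0 of the 66 higher genes. Anywhere in the 250 upstream bases on that strand the shares were 7.62% of the lower, 6.06% of the higher and 6.76% of all tested genes, and on either strand 10.5%, 7.58% and 9.36%. In the deposited list of TATA genes, which covers 22.01% of the genes tested, lay 46 of the lower genes (43.8%) and 12 of the higher genes (18.2%). Read the other way, 12 of the 3619 tested TATA-list genes were higher and 46 lower (1.27%), with a median log2 fold change of 0.01, and of the 11843 genes on the TATA-less list 51 were higher and 56 lower (0.473%), with a median of 0.01. The called genes also had higher read levels than most: their median CPM was 140 for lower, 115 for higher and 30.5 for all tested genes, and 47.6% of the lower and 39.4% of the higher genes lay among the 10% of genes with the most reads (144 CPM or more). Among those 10% the TATA list held 21 lower genes (42.0%), 4 higher genes (15.4%) and 23.7% of all tested genes. Gene bodies had a median of 31.2 kb in lower, 22.99 kb in higher and 26.9 kb in all tested genes. The part of read level and length in these shares was not tested.

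Hspa8 (chr9:40800984-40810087, mm10), which codes for the constitutive cytosolic Hsp70 chaperone, showed the clearest drop. It had 93.1 and 54.8 CPM in the RA+IAA libraries against 333 and 175 CPM in the RA libraries, a 3.40-fold difference (log2 fold change -1.77 ± 0.11 SE, adjusted p = 6.07e-18). Both RA+IAA libraries lay below both RA libraries. Pabpc4 (chr4:123262351-123298925), of the cytoplasmic poly(A)-binding proteins, had 85.3 and 63.9 CPM in RA+IAA against 237 and 162 CPM in RA (-1.41 ± 0.12, adjusted p = 7.31e-14), and its paralog Pabpc1 had 56.8 and 51.5 CPM against 137 and 91.5 CPM (-1.06 ± 0.14, adjusted p = 5.11e-07). Snx5, a sorting nexin of endosome-to-Golgi transport, was the most heavily covered of the leading genes, with 310 and 213 CPM in RA+IAA against 814 and 472 CPM in RA (-1.28 ± 0.09, adjusted p = 6.63e-17). Slc35b2, the Golgi transporter of the sulfate donor PAPS, had 136 and 44.5 CPM in RA+IAA against 334 and 138 CPM in RA (-1.44 ± 0.11, adjusted p = 2.16e-14). For each of these genes replicate 2 was lower than replicate 1 in both groups, and the RA+IAA library of replicate 1 stayed under the RA library of replicate 2, for Slc35b2 by only 136 against 138 CPM. In leave-outs without the block the value of Slc35b2 was -2.46 without replicate 1 of RA+IAA and -0.61 without replicate 1 of RA. Such fits do not pair libraries by number, so the split between replicates enters these values. All 5 genes also passed in the fit of 8 libraries, with adjusted p between 1.09e-08 and 0.000176.

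**Figure D2:**
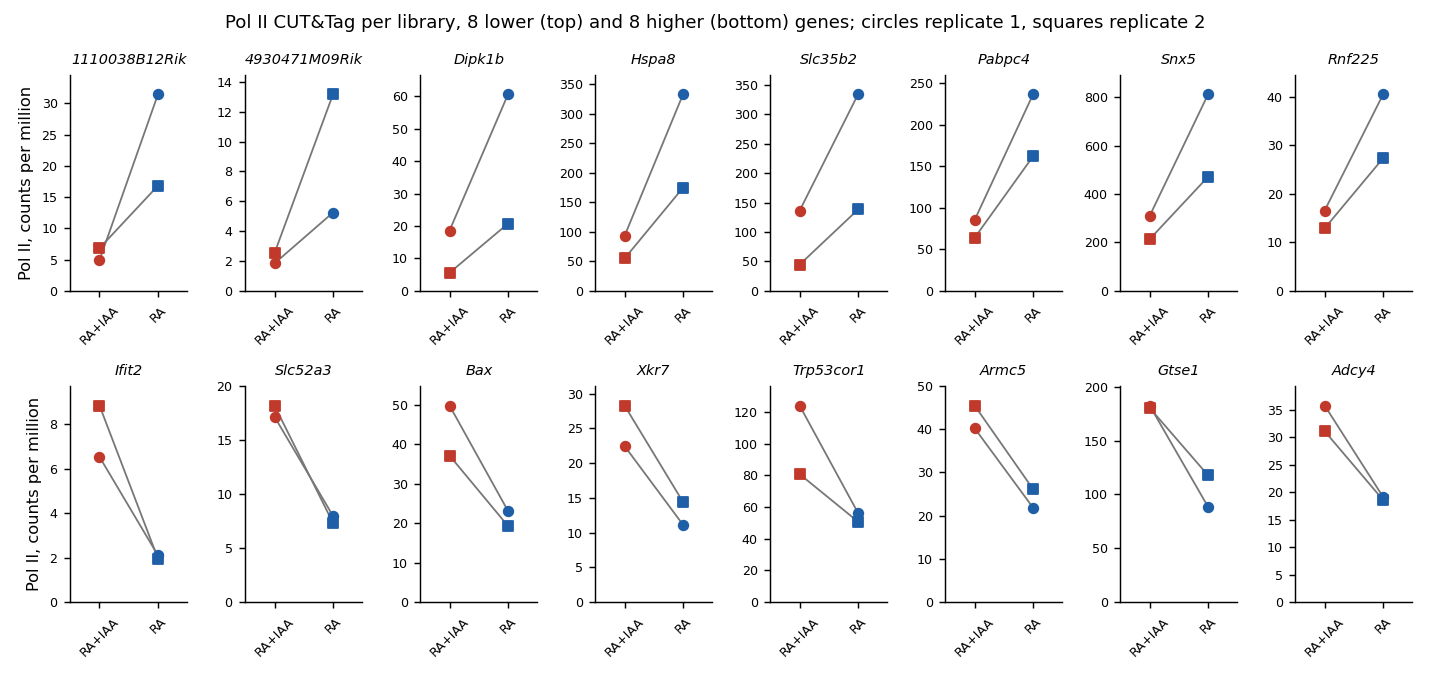
Pol II level in CPM (vertical axes, each from 0) of the 8 lower genes (top row) and the 8 higher genes (bottom row) with the largest log2 fold changes among those whose groups do not overlap, RA+IAA in red and RA in blue. Circles are replicate 1, squares replicate 2, and lines join libraries of the same number. The lines of a gene run in the same direction because the genes were chosen for groups that do not overlap.

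The largest fold change of all belonged to 1110038B12Rik (chr17:34950238-34952471), a non-coding host of small nucleolar RNAs, with 4.90 and 6.82 CPM in RA+IAA against 31.5 and 16.8 CPM in RA (-2.03 ± 0.32, adjusted p = 1.97e-05). Dipk1b, of a family of kinase-like proteins of the secretory pathway, had 18.6 and 5.56 CPM in RA+IAA against 60.6 and 20.7 CPM in RA (-1.77 ± 0.24, adjusted p = 1.19e-06). Neither gene's groups overlapped. In leave-outs without the block the value of Dipk1b was -2.92 without replicate 1 of RA+IAA and -0.77 without replicate 1 of RA. The uncharacterised transcript 4930471M09Rik, at 1.84 and 2.53 CPM in RA+IAA against 5.24 and 13.2 CPM in RA (-1.98 ± 0.51, adjusted p = 0.0244), was the most thinly covered gene of this set. The other lower genes among the 14 with the largest fold change and no overlap between the groups were Rnf225 (-1.20 ± 0.24), 1810014B01Rik (-1.19 ± 0.25), the cullin adaptor gene Klhl13 (-1.10 ± 0.19), the histone chaperone gene Nap1l1 (-1.02 ± 0.10), the replication clamp loader gene Rfc4 (-1.01 ± 0.13) and the T-box factor gene Tbx20 (-0.97 ± 0.26). Their adjusted p ran from 6.10e-11 for Nap1l1 to 0.0429 for Tbx20. In the fit of 8 libraries 4930471M09Rik and Tbx20 were no longer past the threshold (adjusted p = 0.12 and 0.10). With 1 library left out the value of 4930471M09Rik lay between -2.60 and -1.28, that of Nap1l1 between -1.51 and -0.52 and that of Rfc4 between -1.39 and -0.55. 1810014B01Rik overlaps Hsp90b1 (-0.51 ± 0.20, adjusted p = 0.35), and 1110038B12Rik, Snx5, Hspa8 and Rfc4 overlap other genes of the table too, and the counting did not separate strands.

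Genes that carry small nucleolar RNAs (snoRNAs, which guide the modification of ribosomal RNA) in their introns made up 13 of the 105 lower genes. Of 77 tested members of the 2 host-gene lists, 13 fell (16.9%, beside 0.639% of all genes tested), 2 rose (2.60%, beside 0.401%) and 62 did not pass, with a list median of -0.11 beside 0.01 over all genes tested. The 13 were 12 of 57 protein-coding hosts and 1110038B12Rik of 20 non-coding ones. These lists, like the others used here, were chosen with earlier results of these data known, so their shares are no separate support. Besides Hspa8, Snx5, Pabpc4 and Nap1l1 the protein-coding hosts included Npm1, the nucleolar phosphoprotein nucleophosmin, which had 239 and 156 CPM in RA+IAA against 452 and 255 CPM in RA (-0.82 ± 0.09, adjusted p = 1.15e-08), with no overlap between the groups. Hsp90ab1, the constitutive Hsp90 gene, had 112 and 47.7 CPM in RA+IAA against 226 and 100.3 CPM in RA (-1.03 ± 0.12, adjusted p = 1.67e-08). Its RA+IAA library of replicate 1 lay above its RA library of replicate 2, so that its groups overlapped. In leave-outs without the block the values of Npm1 and Hsp90ab1 were -1.23 and -1.82 without replicate 1 of RA+IAA. They were -0.37 and -0.32 without replicate 1 of RA. The 2 hosts that rose were Nap1l4 (0.42 ± 0.10, adjusted p = 0.0182) and the non-coding Snhg4 (0.38 ± 0.10, adjusted p = 0.0281), and in the fit of 8 libraries 10 hosts were lower and 0 higher. With 1 library left out Snhg4 reached -0.56.

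Heat shock chaperone genes and chaperones of the endoplasmic reticulum (ER) were counted separately. Of 30 heat shock chaperone genes tested Hspa8 and Hsp90ab1 fell (6.67%, beside 0.639% of all genes tested) and 0 rose, with a median of -0.05. Both are also among the snoRNA hosts counted above. Of 20 chaperones and folding enzymes of the ER, 6 fell (30.0%, beside 0.639% of all genes tested) and 1 rose, with a median of -0.38. P4hb, the beta subunit of prolyl hydroxylase and a disulfide isomerase, had 174 and 107 CPM in RA+IAA against 306 and 224 CPM in RA (-0.94 ± 0.10, adjusted p = 2.25e-09), with no overlap. Hspa5, the ER Hsp70 known as BiP, had 104 and 67.4 CPM in RA+IAA against 180 and 104 CPM in RA (-0.71 ± 0.12, adjusted p = 0.000134). Its replicate 1 library of RA+IAA and replicate 2 library of RA were nearly level, at 104.3 and 103.9 CPM, and with 1 library left out its value lay between -1.12 and -0.28. Pdia4 (-0.77 ± 0.16) and Pdia6 (-0.62 ± 0.15), further disulfide isomerases, fell as well (with 1 library left out Pdia6 reached 0.062), as did Hyou1 and Manf (-0.60 ± 0.15 and -0.66 ± 0.18), which are named after their values were seen. The member that rose, Ddit3, codes for the stress transcription factor CHOP and is not a chaperone. In the fit of 8 libraries 3 of the 20 were lower, and all 8 TRiC chaperonin genes stayed short of the threshold.

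Translation factor and ribosomal protein genes had medians near 0, with 4 lower genes in each list. Of 47 translation factors 4 fell (8.51%, beside 0.639% of all genes tested) and 0 rose, the 4 being Pabpc4, Pabpc1, the helicase gene Eif4a2 (-0.66 ± 0.13, adjusted p = 0.000846) and the elongation factor gene Eef1b2 (-0.69 ± 0.18, adjusted p = 0.0295). Of these, Pabpc4, Eif4a2 and Eef1b2 are also snoRNA hosts counted above. The median was 0.00 for translation factors and 0.00 for the 75 cytosolic ribosomal protein genes, beside 0.01 over all genes tested. Of the ribosomal protein genes 4 fell (5.33%), among them Rps9 (-1.22 ± 0.20, adjusted p = 5.45e-05), Rpsa (-0.63 ± 0.14) and Rpl3 (-0.54 ± 0.10), and Rpl26 rose (0.49 ± 0.13, adjusted p = 0.0324). Rpsa and Rpl3 are snoRNA hosts as well, so the shares of these lists are not separate observations. Rps9 had 34.3 and 11.9 CPM in RA+IAA against 74.3 and 31.2 CPM in RA, and its groups overlapped. In leave-outs without the block its value was -2.20 without replicate 1 of RA+IAA and -0.43 without replicate 1 of RA. In metabolism, the glucose transporter gene Slc2a1 (-0.51 ± 0.11, adjusted p = 0.00367) and the monocarboxylate transporter gene Slc16a1 (-0.72 ± 0.18, adjusted p = 0.0344) fell among 26 genes of glucose uptake and glycolysis (7.69%). Slc2a1 was at 281 and 171 CPM in RA+IAA and at 309 and 323 CPM in RA, so that most of its difference came from replicate 2. Actg1, the cytoplasmic gamma actin gene (-0.67 ± 0.18), and Taf1d, a subunit gene of the RNA polymerase I selectivity factor and itself a snoRNA host (-0.57 ± 0.09), were the only members of the actin and the RNA polymerase I and III lists to fall, and 0 members of those 2 lists rose. They made up 3.85% of the tested actin list and 2.70% of the tested polymerase list, beside 0.639% of all genes tested. In the fit of 8 libraries Slc2a1 (adjusted p = 0.31), Slc16a1 (0.25), Eef1b2 (0.088), Rpl3 (0.058), Rpl26 (0.25) and Actg1 (0.10) were no longer past the threshold, and Eif4a2, Rps9, Rpsa and Taf1d were. With 1 library left out the values closest to 0 were -0.15 for Eif4a2, -0.10 for Rpsa, -0.02 for Rpl3, -0.10 for Taf1d, -0.15 for Slc2a1, -0.21 for Slc16a1 and 0.01 for Rpl26.

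Some lower genes sit next to each other. Of the 105, 20 formed 10 pairs that overlapped or lay within 5 kb, and 0 of the 66 higher genes, a smaller set, did. How many such pairs other sets of tested genes would form was not computed, so closeness is not read as a trait of the lower genes. Slc35b2 and Hsp90ab1 end 103 bases apart on chromosome 17, Hspa5 and Rabepk lie 8 bases apart on chromosome 2, and Rfc4 overlaps Eif4a2 by 194 bases on chromosome 16. Any overlap with another gene of the table was found for 50 lower genes (47.6%), 16 higher genes (24.2%) and 30.6% of all tested genes. Counted without overlapping genes, 50 genes were higher and 55 lower. The members of a pair share a stretch of the genome and are not independent observations.

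The genes with more Pol II in RA+IAA included 7 targets of p53, the transcription factor that halts the cell cycle and starts apoptosis after DNA damage and other stress. Of 30 p53 target genes tested 7 rose (23.3%, beside 0.401% of all genes tested) and 0 fell, with a median of 0.33. Bax, whose protein opens the outer mitochondrial membrane, had 49.8 and 37.1 CPM in RA+IAA against 23.1 and 19.3 CPM in RA (1.03 ± 0.21, adjusted p = 0.00206). Gtse1, a microtubule-binding protein that acts back on p53, had 183 and 180 CPM against 88.3 and 118 CPM (0.83 ± 0.11, adjusted p = 1.59e-06). Trp53cor1, also called lincRNA-p21, had 124 and 80.8 CPM against 56.2 and 50.8 CPM (0.92 ± 0.14, adjusted p = 2.71e-05). In all 3 both RA+IAA libraries stood above both RA libraries. Cdkn1a, the cell cycle inhibitor p21 and the neighbour of Trp53cor1, had 100.8 and 80.6 CPM in RA+IAA against 46.2 and 63.0 CPM in RA (0.75 ± 0.15, adjusted p = 0.00304), and Mdm2, the ubiquitin ligase that degrades p53, had 260 and 210 CPM against 176 and 137 CPM (0.58 ± 0.10, adjusted p = 0.000153). The other members that rose were Sesn2 (0.60 ± 0.13) and Aen (0.53 ± 0.13), and 4 of the 30 were higher in the fit of 8 libraries. With 1 library left out Cdkn1a lay between 0.40 and 1.04, Trp53cor1 between 0.55 and 1.22, Mdm2 between 0.37 and 0.77 and Sesn2 between 0.37 and 0.82.

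The rest of the 14 leading higher genes belonged to no list used here. Ifit2, an interferon-induced gene, had the largest value at 6.53 and 8.84 CPM in RA+IAA against 2.10 and 1.95 CPM in RA (1.89 ± 0.52, adjusted p = 0.0438), which rests on few reads. Slc52a3, a riboflavin transporter gene, had 17.1 and 18.2 CPM against 7.97 and 7.32 CPM (1.20 ± 0.31, adjusted p = 0.0289). Xkr7 (0.99 ± 0.25) and Armc5, whose protein directs a cullin ligase to Pol II (0.84 ± 0.20), followed, with Adcy4 (0.83 ± 0.22), Tmem189 (0.79 ± 0.19), Gzmm (0.70 ± 0.15), Got1l1 (0.69 ± 0.13), Crlf2 (0.68 ± 0.17) and Ptprv (0.68 ± 0.16). Their adjusted p ran from 0.00106 for Got1l1 to 0.0499 for Adcy4. Only Got1l1 of these 10 passed in the fit of 8 libraries.

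A further set of higher genes belongs to the integrated stress response, the program by which phosphorylated eIF2 and the factor ATF4 raise amino acid supply. Of 19 such genes tested 6 rose (31.6%, beside 0.401% of all genes tested) and 0 fell, with a median of 0.35. Asns, the asparagine synthetase gene, had 114 and 55.6 CPM in RA+IAA against 64.2 and 30.3 CPM in RA (0.85 ± 0.15, adjusted p = 0.000337), and Trib3, a pseudokinase gene induced by CHOP, had 53.5 and 16.7 CPM against 23.9 and 10.5 CPM (0.97 ± 0.23, adjusted p = 0.0195). In both genes the groups overlapped, because replicate 2 was low in each group. Aldh18a1, a proline synthesis enzyme gene (0.47 ± 0.11, adjusted p = 0.0192), and Sesn2, which counts under p53 as well, also rose, together with Ddit3 (0.66 ± 0.17) and Psat1 (0.46 ± 0.11). Of 23 cytosolic aminoacyl-tRNA synthetase genes, a list added after their values were seen, 5 rose (21.7%) and 0 fell, with a median of 0.13. Aars was at 395 and 199 CPM in RA+IAA and at 257 and 128 CPM in RA (0.63 ± 0.10, adjusted p = 1.70e-05), and Cars, Iars, Nars and Sars had log2 fold changes of 0.58 ± 0.09, 0.42 ± 0.10, 0.53 ± 0.13 and 0.53 ± 0.14. In the fit of 8 libraries 1 stress response gene, Asns, and 2 synthetase genes, Aars and Cars, passed, and in leave-outs without a block the values of Aars, Cars, Iars, Nars, Aldh18a1 and Trib3 reached below 0 and that of Asns reached 0.18.

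**Figure D3:**
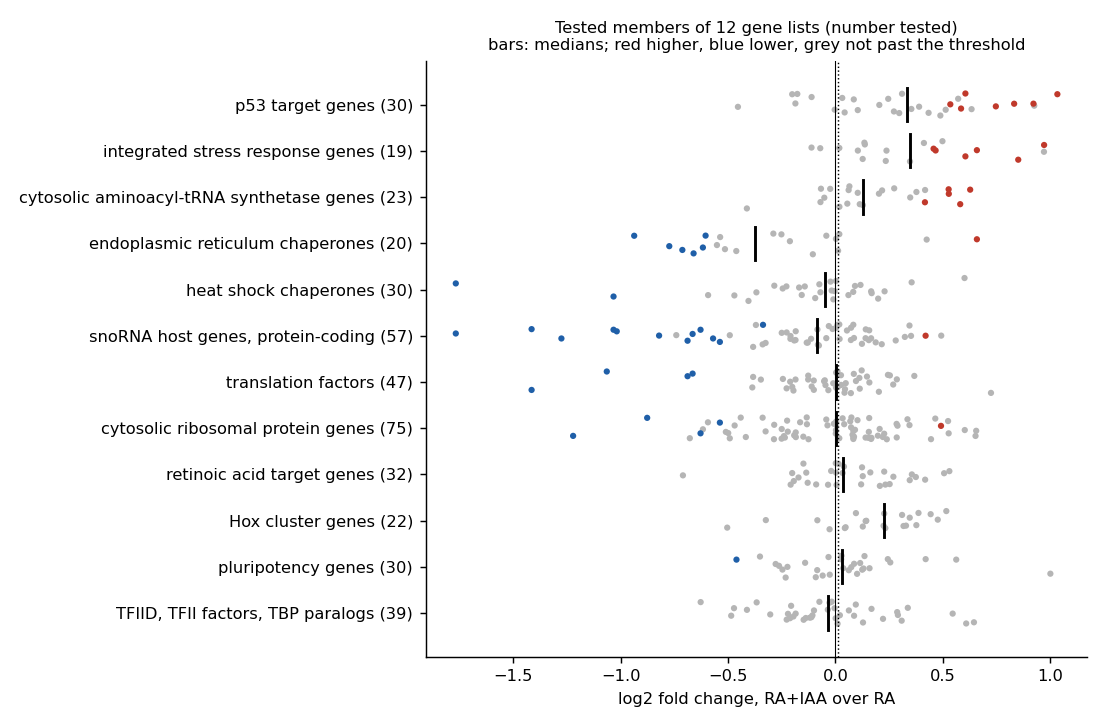
Log2 fold change of Pol II, RA+IAA over RA (horizontal axis), for the tested members of 12 gene lists, whose number follows each name. Each point is a gene, red where higher, blue where lower and grey where not past the threshold, black bars are list medians, the dotted line is the median of all tested genes (0.01), and the vertical spread within a row carries no value. The coloured points of the p53, stress response and synthetase rows are all red, the ER chaperone row has 6 blue and 1 red, the protein-coding snoRNA host row 12 blue and 1 red, and the RA target row has 0 coloured points.

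The RA program itself gave no call. Of 32 RA target genes tested 0 rose and 0 fell with IAA, with a median of 0.04, as of 19 RA receptors and binding proteins (median -0.08), 11 genes of retinoid metabolism (median 0.02) and 22 Hox genes (median 0.23). Stra8, the germline gatekeeper gene that RA switches on, had 327 and 185 CPM in RA+IAA against 279 and 185 CPM in RA (0.12 ± 0.10, adjusted p = 0.77, 95% interval -0.07 to 0.31). The groups overlapped, and both were far above cells without RA, which had 19.9 and 19.8 CPM with IAA and 14.2 and 19.3 CPM in control. Levels with and without RA were scaled within each pair of groups and are set side by side only roughly.

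The other RA targets named here were also not past the threshold. Nrip1, a nuclear receptor corepressor gene, had 262 and 193 CPM in RA+IAA against 266 and 216 CPM in RA (-0.09 ± 0.10, adjusted p = 0.84), beside 42.4 and 37.5 CPM with IAA and 34.9 and 39.9 CPM in control without RA. Cdx1, a caudal homeobox gene, had 39.8 and 48.5 CPM against 34.6 and 33.9 CPM (0.36 ± 0.19, adjusted p = 0.56), so that its groups did not overlap but its test was not passed. The receptor gene Rarb (0.21 ± 0.13, adjusted p = 0.65), the retinaldehyde reductase gene Dhrs3 (-0.21 ± 0.18, adjusted p = 0.80) and Islr (0.27 ± 0.17, adjusted p = 0.66) had 95% intervals that stayed within 2-fold. Cyp26a1, which degrades RA, was at 9.39 and 4.29 CPM in RA+IAA and 13.2 and 8.78 CPM in RA (-0.71 ± 0.36, 95% interval -1.44 to 0.02), Hoxb1 at 6.94 and 5.30 CPM and 3.78 and 7.08 CPM, and for both the interval reached beyond 2-fold.

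Set beside each other, the RA responses with and without IAA had these values, each pair of which shares libraries with the contrast described here. Stra8 differed by 3.62 ± 0.20 between RA+IAA and IAA and by 3.75 ± 0.16 between RA and control, Nrip1 by 2.48 ± 0.16 and 2.65 ± 0.13, and Cdx1 by 1.96 ± 0.26 and 1.32 ± 0.23. Dhrs3 differed by 1.40 ± 0.25 and 1.62 ± 0.22, Islr by 1.46 ± 0.22 and 1.55 ± 0.21, and Rarb by 1.23 ± 0.17 and 0.95 ± 0.15. All 6 passed the threshold in both comparisons. The number of all genes past it was 298 (1.82%) for RA+IAA over IAA and 1863 (11.4%) for RA over control, and in the fit of 8 libraries, with 1 spread for both, 275 higher and 366 lower against 397 higher and 666 lower. Without the block the numbers were 0 and 3 genes, and with 1 library left out of the 8 they lay between 135 and 194 higher and 233 and 401 lower genes for RA+IAA over IAA and between 85 and 174 higher and 181 and 277 lower genes for RA over control, ranges that overlap. The study reported far fewer genes for RA over control in this assay, and its methods do not state whether the model held a block. The blocked fits of 4 libraries also estimated the spread differently. It came wholly from all genes together for RA over control, and mostly so for RA+IAA over IAA. The counts 298 and 1863 are therefore not read as sizes of the RA response. The difference between the counts for RA+IAA over IAA and for RA over control was not itself tested.

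**Figure D4:**
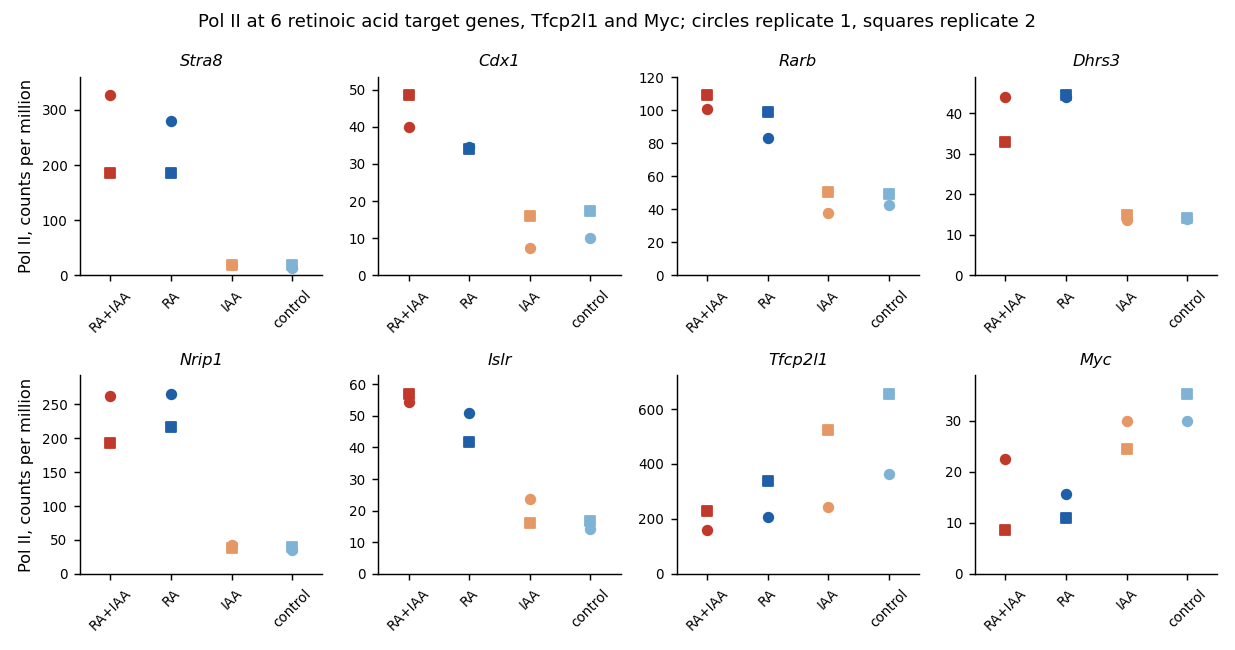
Pol II level in CPM (vertical axes, each from 0) of 6 RA target genes, Tfcp2l1 and Myc in RA+IAA, RA, IAA and control libraries, circles for replicate 1 and squares for replicate 2. RA+IAA and RA libraries are close to each other and above the libraries without RA for the 6 targets and below them for Myc, and for Tfcp2l1 each library with RA is below those of the same number without RA.

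Genes that RA turns down and the transcription machinery were next. Of 30 pluripotency genes tested 1 fell (3.33%, beside 0.639% of all genes tested) and 0 rose, with a median of 0.03. It was Tfcp2l1, a naive-state transcription factor gene, with 160 and 231 CPM in RA+IAA against 206 and 339 CPM in RA (-0.46 ± 0.10, adjusted p = 0.00392). The groups of Tfcp2l1 overlapped, its value lay between -0.81 and -0.09 with 1 library left out, and it did not pass in the fit of 8 libraries (adjusted p = 0.26). Myc had 22.5 and 8.59 CPM in RA+IAA against 15.7 and 10.98 CPM in RA (0.16 ± 0.29, adjusted p = 0.92), and Nanog 5.51 and 8.59 CPM against 6.50 and 10.2 CPM (-0.25 ± 0.39, 95% interval -1.03 to 0.53). Pou5f1 had 5.92 and 10.9 CPM against 4.83 and 3.17 CPM (adjusted p = 0.46), with a 95% interval of 0.10 to 1.90 on the log2 scale, so that at its few reads the size of a difference could not be narrowed further. Of 39 general transcription factor, TAF and TBP paralog genes 0 changed, with a median of -0.04. Tbp itself, whose protein rather than its gene is the target of IAA, was at 37.0 and 34.9 CPM in RA+IAA and 26.2 and 32.9 CPM in RA (0.29 ± 0.20, adjusted p = 0.72), and Tbpl1, which codes for the paralog TRF2, at 10.2 and 12.1 CPM and 11.7 and 10.5 CPM (-0.00 ± 0.32). Tbpl2, the gene of the oocyte paralog TRF3, had 2.45 and 6.06 CPM in RA+IAA and 1.47 and 1.22 CPM in RA and was not tested.

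The loading genes Actb (0.10 ± 0.14, adjusted p = 0.89) and Gapdh (0.04 ± 0.13, adjusted p = 0.96) were not past the threshold. Of 30 DNA replication genes Rfc4 fell (3.33%, beside 0.639% of all genes tested) and Mcm5, a helicase subunit gene, rose (3.33%, beside 0.401%). The value of Mcm5 was 0.36 ± 0.09 (adjusted p = 0.0249), with 1 library left out as low as -0.11. Of 22 nucleolar and histone chaperone genes Npm1 and Nap1l1 fell (9.09%) and Nap1l4 rose (4.55%), and all of them are also snoRNA hosts counted above. The lists of epiblast, primitive endoderm, mesoderm, trophoblast and feeder markers, RNA polymerase II subunits, immediate-early genes, replication-dependent histones, oxidative phosphorylation, mitochondrial ribosomal proteins, the proteasome and splicing factors held 0 genes past the threshold of 10 to 86 tested per list, and 0 of the 2-cell-like genes could be tested. In all, 28 of the 105 lower and 21 of the 66 higher genes lay in at least 1 list. The same share was not counted over all genes tested, so this cover is only a description.

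The IAA difference was then set beside the one in cells of the same run that had no RA, which shares no library with it. IAA over control gave 233 lower (1.43%) and 120 higher genes (0.734%). Of the 105 genes lower during RA, 69 were also lower without RA (65.7% of the 105 and 29.6% of the 233), and of the 66 higher genes 28 were also higher (42.4% of the 66 and 23.3% of the 120), with 0 genes past the threshold in opposite directions. These overlaps rest on the blocked fit of 4 libraries: IAA over control gave 0 lower and 0 higher genes without the block or with E. coli scaling, 51 and 14 in DESeq2, 71 and 26 in the fit of 8 libraries, and 0 to 83 and 0 to 30 with 1 library left out. Counting signs alone, 102 of the 105 lower genes were below 0 without RA, with a median of -0.50, against 48.2% of all tested genes, and 59 of 65 higher genes were above 0, with a median of 0.36. Hspa8 had 116 and 43.7 CPM with IAA against 413 and 222 CPM in control (-2.05 ± 0.12), and Gtse1 229 and 248 CPM against 144 and 171 CPM (0.61 ± 0.11). Values near 0 without RA were found for the higher genes Slc52a3 (-0.04 ± 0.26), Xkr7 (-0.02 ± 0.23) and Tmem189 (0.09 ± 0.18) and the lower gene Tbx20 (0.00 ± 0.22). The 2 comparisons share the run and the split between its replicates.

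Whether the IAA difference depended on RA was tested by the interaction term in a blocked fit of the 8 libraries, and 0 of 17032 genes passed, with 580 at an unadjusted p under 0.05, a smallest adjusted p of 0.9999 and a median SE of 0.30 (log2). DESeq2 also called 0, with 205 at an unadjusted p under 0.05. The smallest unadjusted p on the higher side belonged to the adenylate kinase gene Ak4 (interaction 1.001 ± 0.24), the ceramide synthase gene Cers4 (0.88 ± 0.22) and the basement membrane gene Nid1 (0.98 ± 0.26), and on the lower side to 4930471M09Rik (-2.83 ± 0.74), Synpr (-1.09 ± 0.30) and Tma7 (-2.44 ± 0.68). Ak4 was at 59.0 and 46.0 CPM in RA+IAA and 53.1 and 61.2 CPM in RA, but at 37.3 and 48.9 CPM with IAA and 85.3 and 99.1 CPM in control. For Stra8 the interaction was -0.10 ± 0.29, and for Hspa8 0.30 ± 0.20.

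In 3 further comparisons that share no library with this one, most of the lower genes had negative values with IAA, while most of the higher genes were above 0 only at 6 h in C64 cells. After 6 h of IAA in C64 cells without RA, 103 of the 105 lower genes were below 0 (median -0.36, all tested genes 49.2% below 0) and 44 of 66 higher genes above 0 (median 0.07). In HS+IAA cells against HS cells, which were heat shocked at 42 °C for 30 min, 101 of 104 lower genes were below 0 (median -0.38, all tested genes 51.7%) and 26 of 65 higher genes above 0 (median -0.05). In B8 cells, which lack Tbpl1, 6 h of IAA against control gave 90 of 104 lower genes below 0 (median -0.42, all tested genes 52.8%) and 20 of 65 higher genes above 0 (median -0.34). In B8 cells 37 of the lower genes passed the threshold as lower and 1 as higher, and of the higher genes 17 passed as lower and 1 as higher, beside 3.61% of all genes tested there as lower and 2.62% as higher. Hspa8 had log2 fold changes of -1.73 ± 0.15, -0.85 ± 0.24 and -1.64 ± 0.13 in these 3, Pabpc4 -1.68 ± 0.14, -0.95 ± 0.32 and -1.71 ± 0.14, and 1110038B12Rik -2.58 ± 0.32, -1.54 ± 0.41 and -2.09 ± 0.22. Trp53cor1 had 0.27 ± 0.22, 0.08 ± 0.24 and 2.05 ± 0.20, while Cdkn1a next to it had 0.21 ± 0.19, -0.13 ± 0.24 and -0.99 ± 0.16. Duration, run, cell line and stress differ between these comparisons and cannot be told apart. Leaving out 1 library at a time, 85 to 92 lower genes were below 0 and 28 to 55 higher genes above 0 at 6 h, and 75 to 101 lower genes and 19 to 41 higher genes with heat shock.

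**Figure D5:**
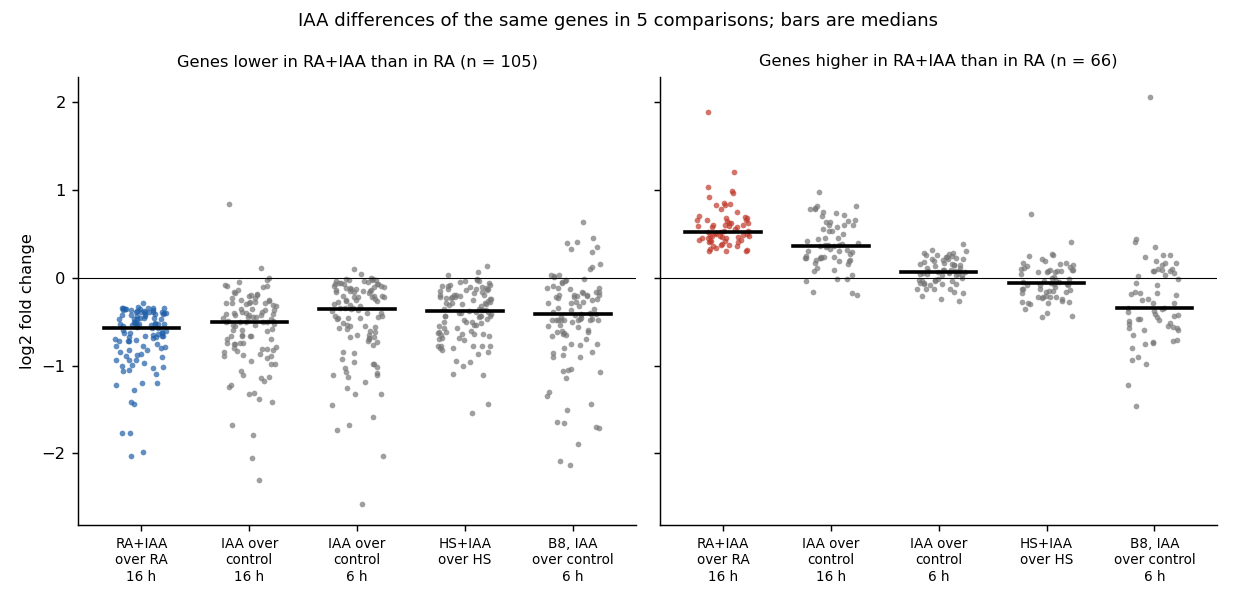
Log2 fold change of Pol II with IAA (vertical axis) for the 105 lower genes (left) and the 66 higher genes (right) in 5 comparisons (horizontal axis), with a point per gene and a bar at the median, where the sideways spread of points carries no value. The leftmost column of each panel is the comparison that chose the genes, and the medians of the other 4 columns are -0.50, -0.36, -0.38 and -0.42 for the lower genes and 0.36, 0.07, -0.05 and -0.34 for the higher genes.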

How the data were processed

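Pol II CUT&Tag reads were aligned by the authors to mm10 with Bowtie2 with duplicates kept and reads subsampled, and the deposited counts are whole-number, unnormalized reads per gene body from featureCounts 2.0.0 with Ensembl GRCm38 annotation 102, without strand, so that overlapping or antisense genes cannot be separated by strand. The E. coli and mouse read numbers and the TATA and TATA-less gene lists were also used as deposited by the authors. Counts of 24 libraries were read, and 4 entered the main comparison, with 3854622 to 5056322 reads each. It was fitted with edgeR 4.0.16 (R 4.3.3): the quasi-likelihood F test, the replicate number as a block, TMM scaling, genes kept by filterByExpr at min.count 20, and Benjamini-Hochberg adjustment. The study's methods name glmFit and do not state whether the model held a block. Without a block the likelihood-ratio test called 0 genes for RA+IAA over RA, where the study reported no significant differences. For IAA over control at 16 h it called 0 higher and 2 lower genes, where the study reported 2 lower. With the block that test called 69 higher and 111 lower genes, and 128 higher and 243 lower. CPM were scaled within each pair of groups. The labels give the replicate numbers without naming cultures, so p-values measure the spread between these libraries, which may be technical. With 1 residual degree of freedom this spread came mostly from all genes together. In the blocked fits of 4 libraries for IAA over control and for RA over control it came wholly from all genes together. Deviations of same-numbered libraries correlated at 0.422 to 0.627 in 6 of 6 pairs of groups, and replicates differed by more than counting noise. DESeq2 1.42.0 and limma 3.58.1 were alternatives. Intervals are 95% intervals of the fit. Ranges of log2 fold changes with 1 library left out span fits of the main comparison without the block and the blocked fit of 8 libraries.

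The members and gene lists were chosen with earlier results of these data known, and the aminoacyl-tRNA synthetase list was added after its values were seen. Genes are named by this rule: the 14 lower and 14 higher genes with the largest log2 fold change past the threshold and no overlap between groups, up to 4 genes per list past the threshold by smallest p, and a set of RA targets, TBP genes, pluripotency and reference genes. Of the remaining genes Hyou1, Manf, Aen, Sars, Ddit3, Psat1, Hsp90b1 and Rabepk were named after their values were seen. Promoter sequences are RefSeq's for GRCm38.p6, and motif shares were computed from that genome at the counted gene starts. A few genes that the rule names are not reported here. The statistics were tested on simulated data in which libraries of the same number shared a built-in replicate difference. Such data cannot decide whether the block is right for the real libraries.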

Additional observations from a re-analysis of the deposited data

Results flagged for a closer look

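At 2 genes past the threshold with RA, both replicates moved one way with IAA during RA and the other way without RA. The transcript 4930471M09Rik differed by -1.98 (log2) between RA+IAA and RA and by 0.84 between IAA and control, and Crlf2, which codes for a cytokine receptor subunit, by 0.68 and -0.17. The difference itself was tested by the interaction in the fit of 8 libraries: it was -2.83 for 4930471M09Rik (unadjusted p = 0.000541) and 0.86 for Crlf2 (unadjusted p = 0.000916) in edgeR's quasi-likelihood test, and neither passed after adjustment over all genes (adjusted p = 0.9999 for both).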

How the results depend on the processing

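The replicate block decided the number of calls. Without it 0 genes were higher and 0 lower between RA+IAA and RA, with the quasi-likelihood test (104 at an unadjusted p under 0.05) and with the likelihood-ratio test (145). With the block the counts were 5 higher and 30 lower in DESeq2, 8 and 40 in the fit of 8 libraries, 17 and 46 with library size alone, 28 and 177 with E. coli scaling, and 55 lower without overlapping genes, while the likelihood-ratio test with the block, limma-voom, other scaling by size factors, the lower minimum count, no filter and a robust fit stayed within 1.5 times of 66 and 105. Leaving out 1 library gave 0 to 12 higher and 0 to 36 lower genes. For IAA over control the counts were 0 and 0 without the block (0 and 2 with the likelihood-ratio test), 14 and 51 in DESeq2, 26 and 71 in the fit of 8 libraries, 197 higher with library size alone, 0 and 0 with E. coli scaling, and 0 to 30 and 0 to 83 with 1 library left out. For RA over control they were 2 and 1 without the block, 397 and 666 in the fit of 8 libraries, and 85 to 174 and 181 to 277 with 1 library left out. For RA+IAA over IAA they were 0 and 0, 275 and 366, and 135 to 194 and 233 to 401. The interaction stayed at 0 in each setting run. The number of higher genes above 0 ranged from 28 to 55 at 6 h and from 19 to 41 with heat shock. The cause of these shifts was not tested.

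Of the alternatives for 72 named genes, 817 kept direction and side of the threshold, 583 lost the call and 40 changed sign. Tbpl1, near 0 in the main test, was 0.0022 without the block, 0.00077 in the likelihood-ratio test without it and 0.015 with library size alone, and Gapdh was -0.025 with E. coli scaling. With 1 library left out, the log2 fold changes that changed sign ranged as follows: Aars -0.0038 to 1.22, Aldh18a1 -0.33 to 1.08, Cars -0.053 to 1.09, Gapdh -0.32 to 0.35, Hoxb1 -0.32 to 0.70, Iars -0.0030 to 0.75, Mcm5 -0.11 to 0.82, Myc -0.69 to 0.75, Nanog -0.59 to 0.096, Nars -0.30 to 1.117, Snhg4 -0.56 to 1.28, Stra8 -0.37 to 0.50, Tbpl1 -0.18 to 0.13, Trib3 -0.10 to 1.75, Nrip1 -0.37 to 0.13, Actb -0.0038 to 0.16, Pdia6 -1.25 to 0.062, Tbp -0.070 to 0.59, Cdx1 -0.0099 to 0.69. These ranges span leave-outs without the block and in the blocked fit of 8 libraries. A lone library was assumed to vary like the others. A replicate block formed from the numbers or style of the column names, chosen after seeing the data, moved the calls over all genes to 18 higher and 175 lower at 6 h (0 and 7 without it), 15 and 93 with heat shock (0 and 0) and 199 and 268 in B8 (332 and 458), while 102, 100 and 90 lower genes were below 0 and 44, 26 and 20 higher genes above 0. The labels do not tie these names to replicate numbers. The block rests on 2 pairs of libraries.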
